A study of Homo sapiens with 6 samples.

Results

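The translation initiation and elongation factors of human pluripotent stem cells (hPSCs) were examined after culture in simulated microgravity (sµg). The genes were taken as every protein-coding gene whose GENCODE symbol begins with EIF1 to EIF6 or with EEF1 or EEF2, apart from EIF1AY, which gave 70 genes among the 60719 in the tables. The choice used symbols only and no measured value. Of the 70 genes, 68 had enough counts to be tested, and the readthrough genes EEF1E1-BLOC1S5 and EEF1AKMT4-ECE2 did not. RNA came from 3 sµg and 3 1g samples labelled as H1 and H9, a pair of established human embryonic stem cell lines that carried no engineered allele. Cells of both conditions were seeded on chamber slides and first kept for 24 h without rotation. The sµg slides then turned for 96 h on a 2-D clinostat, a rotor on which no direction of pull persists. The 1g slides stood still for the same 96 h. The study's methods speak of repeats at least in triplicate and of matched controls. The sources used here do not say which line or mixture of lines a library holds, nor, of these 6 libraries, how controls were matched or whether each was its own culture, so p-values measure the spread between these 6 libraries, which may be technical. The stranded libraries captured poly(A) RNA.

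A cytosolic mRNA is read in steps that each use their own factors. The eIF4F complex binds the cap at the 5′ end, eIF2 brings the initiator tRNA, eIF3 and the small scanning factors hold the 43S complex together while it searches for the start codon, and eIF5B joins the large subunit. The eEF1 complex then delivers each aminoacyl-tRNA and eEF2 moves the ribosome along. Cells slow initiation by phosphorylating eIF2 alpha or by holding eIF4E on the 4E-binding proteins, and mRNA levels do not show these modifications.

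The libraries held 19971097 to 20588215 expected counts in sµg and 20876937 to 28506848 in 1g. Library sµg replicate 3 stood apart: its counts differed from those of the other 2 sµg libraries by a chi-square of 5.93 and 6.22 per gene, against 1.64 between those 2 and 1.78 to 2.22 within 1g, and its mean effective gene length was 1267 bases, against 1305 to 1336 in the other 5. Mitochondrially encoded genes took 4.11 to 4.76% of the counts in sµg and 5.23 to 5.33% in 1g. Pluripotency markers were abundant, with a summed level of 5716 to 5769 TPM (a transcript level per length, scaled to a constant sum per library) in sµg and 6054 to 6102 TPM in 1g over 10 genes, of which 3 were lower in sµg. All 8 tested markers of trophectoderm and amnion were lower in sµg (summed level 429.6 to 469.7 TPM in sµg and 504.2 to 509.8 TPM in 1g, with CGA at 0 counts in every library). Most of that sum was KRT18, with 434 TPM in sµg and 459 TPM in 1g, and the median log2 fold change of the 8 was -2.56, with GATA3 at 0.223 TPM in sµg and 5.76 TPM in 1g. Of 11 Y-linked genes, 5 were higher in sµg, beside 15.5% of all genes tested, and 0 were lower. The part of these differences in the values that follow was not tested. In such bulk samples, fewer cells of a type and less RNA per cell cannot be told apart.

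The 68 factors mostly changed little, and they moved in both directions. In edgeR's quasi-likelihood test, with p adjusted by Benjamini-Hochberg over 16763 genes and a threshold of 0.05, sµg was called higher for 12 of them, lower for 13 and neither for 43. This is 12 of 68 beside 15.5% of all genes tested that were called higher, and 13 of 68 beside 18.2% called lower. Most factors are abundant, and all 25 called factors were among the 59 with a mean of at least 10 TPM, where the background was 22.0% higher and 18.7% lower. The shares of factors called were thus near those of all genes. The median log2 fold change of the factors was 0.02, against 0.01 for all genes tested, and the fitted values ran from -1.08 for EEF1A2 to 0.30 for EIF3CL, which was not called. CPM, the counts scaled to library size, of the sµg and 1g libraries did not overlap for 20 factors with sµg above, beside 21.8% of all genes, and for 17 with sµg below, beside 23.7%. The 12 higher factors rose by 8.37 to 20.9%. The count of higher factors depended on single libraries: it was 5 without 1g replicate 2, 7 without 1g replicate 3 and 18 without sµg replicate 3, while the count of lower factors stayed between 9 and 14. All genes called higher numbered 2039, 1959 and 2967 without these libraries in turn, against 2591 with every library. Of the 25 called factors, 10 kept their call in every one of 14 alternative analyses, 7 of them lower (EEF1A1, EEF1A2, EEF1G, EEF2, EIF1B, EIF3L and EIF4B) and 3 higher (EIF5, EIF5B and EIF2S2).

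**Figure D1:**
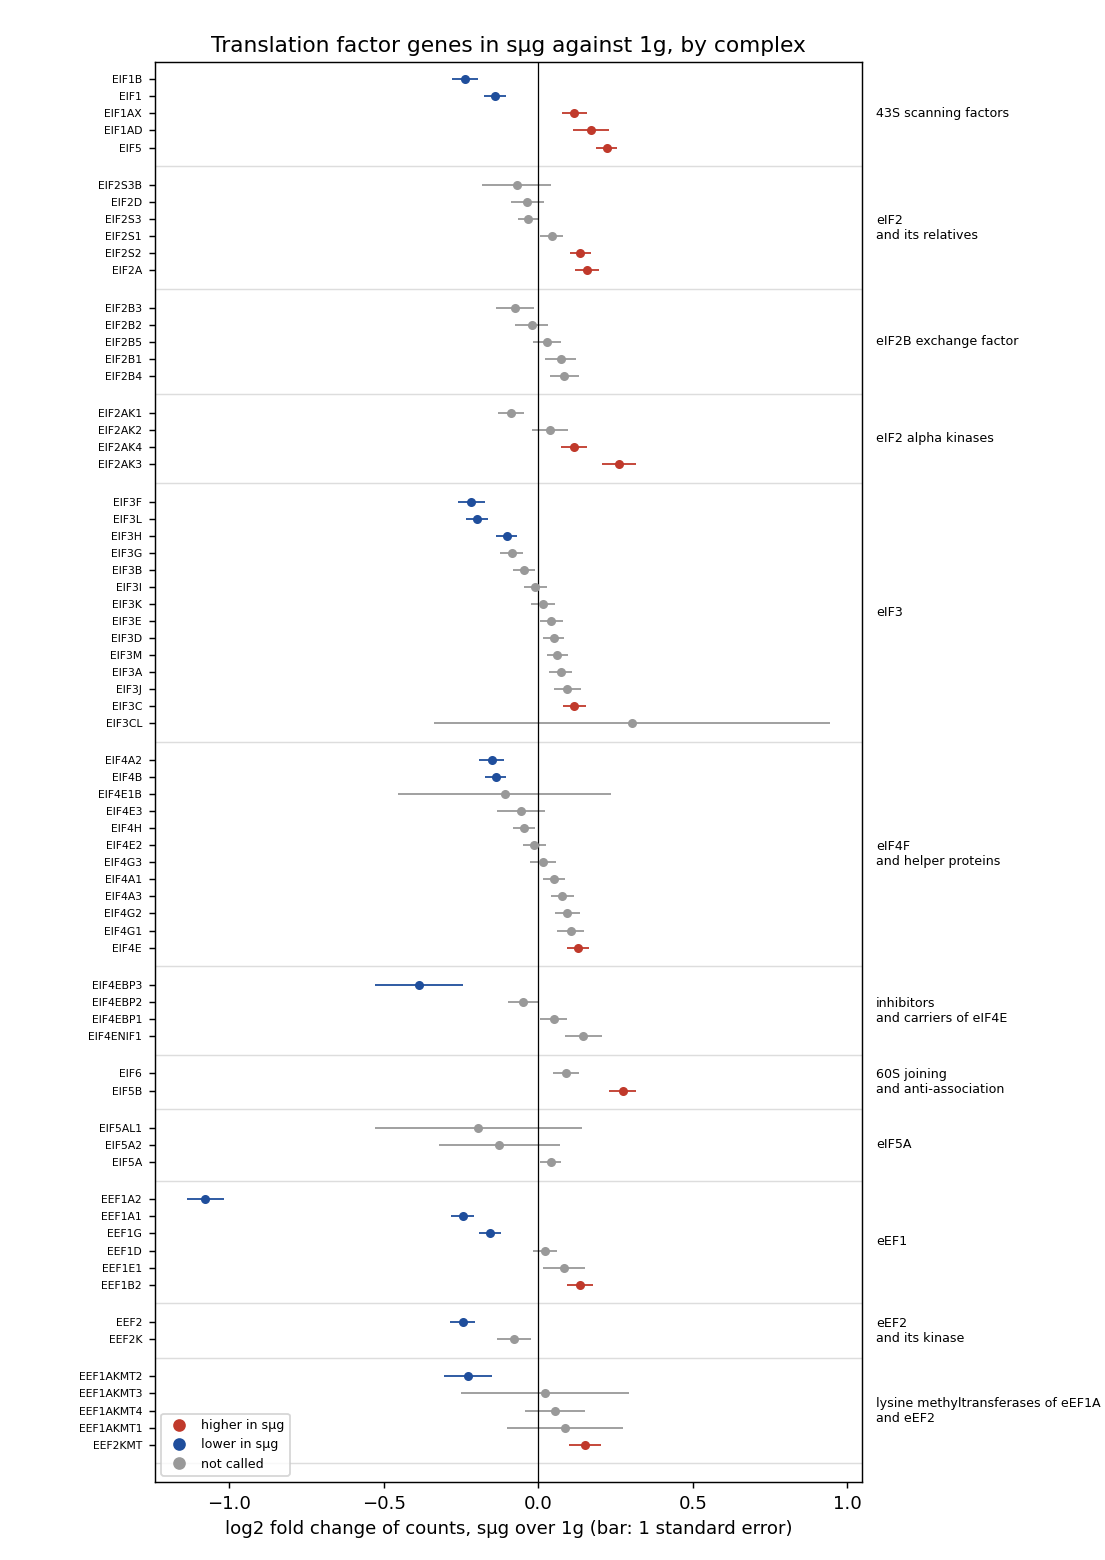
Log2 fold change of counts in sµg over 1g for the 68 tested translation factor genes (x axis), grouped by complex from top to bottom, with bars of 1 standard error; red genes were called higher in sµg, blue lower and grey not called. Most points lie within 0.3 of 0, and EEF1A2 at -1.08 stands farthest out.

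The level of the factors spanned several orders of magnitude. Over both conditions, 5 genes averaged 1000 TPM or more, 32 lay between 100 and 1000 TPM, 22 between 10 and 100 TPM and 11 under 10 TPM. The order at the top was EEF1A1, EEF1G, EEF2, EIF4A1 and EEF1B2. EEF1A1 alone held 1.42, 1.44 and 1.39% of all TPM in the sµg libraries, against 1.67, 1.63 and 1.63% in the 1g libraries. With EEF1A1 included, the summed level of all 70 genes was 31773 ± 669 TPM in sµg and 33994 ± 190 TPM in 1g (SD, n = 3 each). Without it the sums were 17579 ± 411 TPM in sµg and 17571 ± 13.8 TPM in 1g, so that the difference in the total lay in this gene. Between replicates, the median coefficient of variation of a factor's CPM was 3.96% in sµg and 2.49% in 1g.

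The largest fall among the factors was in an elongation factor, EEF1A2. EEF1A1 and EEF1A2 encode the GTPase that carries aminoacyl-tRNA to the ribosome. EEF1A1 is the form of most tissues, and EEF1A2 the form of neurons, heart and skeletal muscle. EEF1A2 (chr20:63488013-63499239, minus strand, GRCh38) had 17.5, 16.4 and 17.6 CPM in sµg, against 37.6, 35.5 and 35.7 CPM in 1g. The groups were far apart, and the fold change on the log2 scale was -1.08 ± 0.06 (SE; edgeR adjusted p = 1.08e-10), a fall of 52.6%. EEF1A1 (chr6:73489308-73525587, minus strand) had 17021, 17366 and 17447 CPM in sµg, against 20662, 20314 and 20408 CPM in 1g. All sµg libraries lay below all 1g libraries by several times the spread within a condition, with a log2 fold change of -0.24 ± 0.04 (edgeR adjusted p = 5.36e-05). On the TPM scale EEF1A1 was 811 ± 25.3 times the level of EEF1A2 in sµg and 453 ± 8.11 times in 1g (SD, n = 3 each), so EEF1A2 was the minor form in both. EEF1A1 has 49 annotated pseudogenes, which together held 91.9 CPM in sµg and 118 CPM in 1g. Markers of neuroectoderm moved in the same direction as EEF1A2: 5 of 6 tested were lower in sµg and MAP2 was higher, with a summed level of 86.4 to 98.7 TPM in sµg and 112 to 117 TPM in 1g over the 7 listed, none of them at 0 counts in all libraries. Most of that sum was NES, with 86.1 TPM in sµg and 105 TPM in 1g, and the median log2 fold change of the 6 tested markers was -1.13, beside -1.08 for EEF1A2. PAX6, for example, had 0.653 TPM in sµg and 2.63 TPM in 1g. A lower median was not particular to neuroectoderm. It was -2.56 over 8 trophectoderm and amnion markers, -0.76 over 5 of mesoderm, -0.13 over 4 of fibroblasts and -0.09 over 4 of endoderm. The mesoderm, fibroblast and endoderm lists each had 2 markers called lower and 1 called higher. The part of any of these cell types in the fall of EEF1A2 was not tested.

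The exchange factor of eEF1A, eEF1B, did not move as a unit. EEF1G, its gamma subunit, had 1791, 1808 and 1836 CPM in sµg and 1969, 2016 and 2067 CPM in 1g, and was lower in sµg (log2 fold change -0.16 ± 0.04, edgeR adjusted p = 0.00269). EEF1B2, a subunit that catalyses the exchange, had 499, 507 and 564 CPM in sµg and 469, 479 and 482 CPM in 1g. It was called higher, with a log2 fold change of 0.14 ± 0.04 and an edgeR adjusted p of 0.021, and sµg replicate 3 was the highest library. That call was lost without any 1 of the 1g libraries (edgeR adjusted p = 0.0987, 0.0678 and 0.0652 without replicate 1, 2 and 3). It was also lost with an offset for effective length (edgeR adjusted p = 0.0658). EEF1D, the delta subunit, and EEF1E1, which belongs to the multisynthetase complex, were not called (edgeR adjusted p = 0.699 and 0.382), and their conditions overlapped. The ratio of EEF1A1 to EEF1B2 in TPM was 12.4 ± 0.695 in sµg and 16.1 ± 0.267 in 1g (SD, n = 3 each).

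EEF2, the translocase, had 3093, 3063 and 2865 CPM in sµg, against 3663, 3497 and 3525 CPM in 1g. It was lower in every sµg library, by 15.6% (log2 fold change -0.24 ± 0.04, edgeR adjusted p = 1.08e-04). Its inhibitory kinase EEF2K was not called, with 30.2, 29.6 and 28.2 CPM in sµg and 31.4, 31.9 and 29.6 CPM in 1g. Among the 3 genes of eIF5A, the factor that relieves stalled ribosomes, edgeR called none, none had an unadjusted p under 0.05, and DESeq2 and limma called none either. EIF5A had 763 CPM in sµg and 742 CPM in 1g on average, with sµg above in every library, and EIF5A2 had 4.07 CPM in sµg and 4.48 CPM in 1g. Over the 11 tested genes of eEF1, eEF2 and eIF5A together, 1 was higher, beside 15.5% of all genes tested, and 4 were lower, beside 18.2%. The summed level of the genes of these groups was 20408 ± 386 TPM in sµg and 22842 ± 205 TPM in 1g (SD, n = 3 each).

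**Figure D2:**
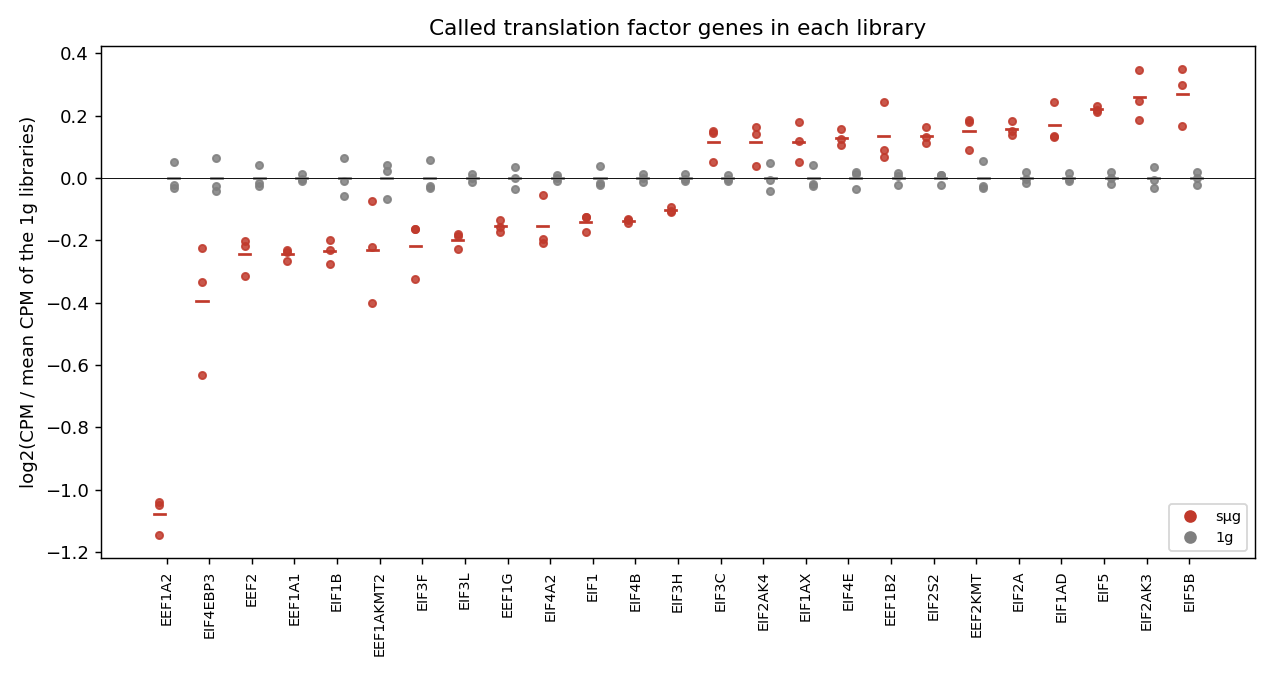
Each of the 25 called translation factor genes in each library, as log2 of its CPM over the mean CPM of the 1g libraries (y axis), with sµg in red left of 1g in grey, points for libraries and short lines for means of the plotted values. The sµg points of EEF1A2 lie near -1.08 and those of the other genes mostly within 0.3 of 0; EIF2AK4 is the gene whose conditions overlap.

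Several of these mRNAs are known in mammals to start with a C and a run of pyrimidines, the 5′ terminal oligopyrimidine (TOP) motif, through which mTORC1 and LARP1 control their translation. The transcript starts were therefore read from RefSeq (GRCh38.p14), which matched 56 of the 70 genes, 54 of them tested. A start was counted as TOP-like when its first base was C and the next 4 bases were C or T on the gene's strand, with no other position searched. Such a start was present in 12 of the 56 factors (21.4%), against 5.23% of the promoters of all genes tested and 4.04% of all promoters in the table. It was present in 5 of 10 lower factors, 1 of 10 higher factors and 6 of 34 that were not called. The next 6 lines show these 5 lower factors and the higher one, and the last 3 show called factors with another start, each from 40 bases before to 20 bases from the RefSeq start on, with the pyrimidine run at the start in capitals.
EEF1A1 (lower), chr6:73521013-73521072, minus strand: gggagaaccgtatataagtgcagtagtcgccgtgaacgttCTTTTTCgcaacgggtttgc
EEF2 (lower), chr19:3985444-3985503, minus strand: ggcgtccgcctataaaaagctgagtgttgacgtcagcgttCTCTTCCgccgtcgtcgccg
EIF4A2 (lower), chr3:186783537-186783596, plus strand: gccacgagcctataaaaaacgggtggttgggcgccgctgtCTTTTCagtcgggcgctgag
EIF4B (lower), chr12:53006416-53006475, plus strand: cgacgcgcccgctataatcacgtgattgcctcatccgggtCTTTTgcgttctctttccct
EIF3F (lower), chr11:7987297-7987356, plus strand: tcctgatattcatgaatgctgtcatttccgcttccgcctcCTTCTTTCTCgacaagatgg
EIF2A (higher), chr3:150546747-150546806, plus strand: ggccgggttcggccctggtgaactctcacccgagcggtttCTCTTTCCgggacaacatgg
EEF1G (lower), chr11:62573872-62573931, minus strand: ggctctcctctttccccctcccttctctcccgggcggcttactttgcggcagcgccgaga
EIF5 (higher), chr14:103334197-103334256, plus strand: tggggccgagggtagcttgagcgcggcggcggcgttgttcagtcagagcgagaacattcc
EIF5B (higher), chr2:99337349-99337408, plus strand: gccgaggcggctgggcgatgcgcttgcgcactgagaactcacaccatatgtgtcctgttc

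The 12 factors with a TOP-like start had a median log2 fold change of -0.05 and a summed level of 18236 ± 415 TPM in sµg and 20731 ± 260 TPM in 1g (SD, n = 3 each), most of it EEF1A1. The other 6, not called, were EIF2D, EIF2S3, EIF2S3B, EIF3D, EIF3K and EIF3M. Outside the factors the shares with and without such a start lay close together: of 622 other tested genes with such a start, 18.8% were lower and 16.1% were higher in sµg, against 18.4% and 17.5% of 11457 other tested genes without it. RefSeq gives 1 start per gene here, and a run that begins a few bases away is not counted. An E-box and an ETS-type motif were searched on both strands in the 300 bases around the start, from 250 before it. The E-box CACGTG was in 15 of the 56 factors (26.8%), against 9.81% of promoters of genes tested, and was in 4 of 10 lower factors, 1 of 10 higher factors and 9 of 34 not called. The ETS-type motif CCGGAAG was in 14 of them (25%), against 18.0%, with 0 of 10 lower factors, 4 of 10 higher factors and 10 of 34 not called. These matches are descriptions of the letters in the window.

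**Figure D3:**
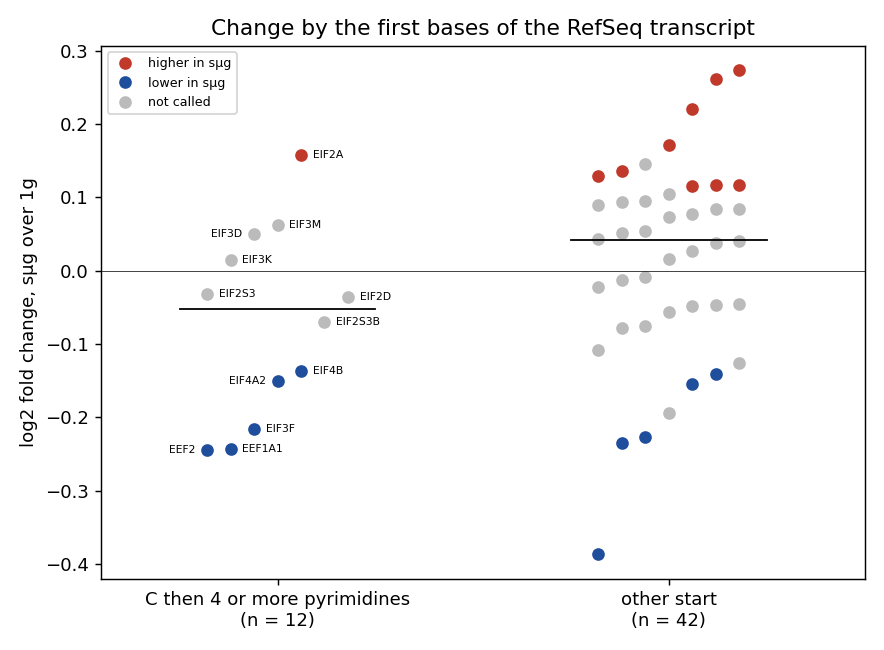
Log2 fold change in sµg over 1g (y axis) of the 54 tested factors with a RefSeq promoter, split by whether the transcript starts with C and at least 4 pyrimidines (left, 12 genes) or otherwise (right, 42 genes); colour gives the call and black lines the medians. On the left, 5 genes are called lower and EIF2A is called higher.

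Of the 5 genes grouped here with the scanning factors of the 43S complex, edgeR called 3 higher and 2 lower. The shares of all genes tested were 15.5% higher and 18.2% lower. DESeq2 called 4 of the 5, and limma on log2(TPM + 1) called 3. EIF5, which activates GTP hydrolysis by eIF2 at the start codon, had 319.96, 317 and 316 CPM in sµg and 269, 276 and 272 CPM in 1g. It rose in every sµg library (log2 fold change 0.22 ± 0.03, edgeR adjusted p = 5.98e-05). EIF1, which keeps the scanning complex open and opposes eIF5, fell by 9.31%, with 355 ± 6.51 CPM in sµg and 391 ± 9.18 CPM in 1g (SD, n = 3 each; edgeR adjusted p = 0.00482), although limma on log2(TPM + 1) did not call it (adjusted p = 0.103). Its paralogue EIF1B had 100.5, 95.4 and 98.3 CPM in sµg and 121, 115 and 111 CPM in 1g, a fall of 15.1% (edgeR adjusted p = 2.52e-04). The TPM ratio of EIF5 to EIF1 was therefore higher in sµg, at 0.390, 0.395 and 0.409, than in 1g, at 0.289, 0.287 and 0.3005, with no overlap. EIF1AX and EIF1AD were called higher (log2 fold change 0.12 and 0.17, edgeR adjusted p = 0.0275 and 0.0303). EIF1AX, which stabilises the scanning complex with EIF1, lost that call without sµg replicate 1 or 2 or 1g replicate 2 or 3 (adjusted p = 0.157, 0.0752, 0.11 and 0.128). EIF1AD lost it without sµg replicate 2 or any 1g replicate (adjusted p = 0.133 without sµg replicate 2, and 0.091, 0.0805 and 0.0667 without 1g replicate 1, 2 and 3). The EIF1AD call was also lost with DESeq2, no count filter and an offset for effective length (adjusted p = 0.114, 0.0539 and 0.47). Limma on log2(TPM + 1) did not call EIF1AD either (adjusted p = 0.332). EIF1AX has a near-identical copy that was not used here, with which reads can be shared.

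The initiator tRNA carrier eIF2 rose in 1 of its 3 subunits. EIF2S2, the beta subunit, had 299.5, 303 and 310.3 CPM in sµg and 279, 273 and 279 CPM in 1g (log2 fold change 0.14 ± 0.03, edgeR adjusted p = 0.0051). EIF2S1, the alpha subunit that stress kinases phosphorylate, and EIF2S3, the gamma subunit, were not called (log2 fold change 0.04 and -0.03), and EIF2S3 shares reads with its copy EIF2S3B. EIF2A, a separate protein that can bring initiator tRNA without eIF2, had 103, 105 and 102 CPM in sµg and 92.4, 91.5 and 93.8 CPM in 1g (log2 fold change 0.16 ± 0.04, edgeR adjusted p = 0.00363), and lost the call with an offset for effective length (adjusted p = 0.0621). The 5 subunits of eIF2B, which reloads eIF2 with GTP, had log2 fold changes from -0.08 to 0.08: edgeR called none, none had an unadjusted p under 0.05, and DESeq2 and limma called none.

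Of the 4 kinases of eIF2 alpha, edgeR called 2 higher, beside 15.5% of all genes tested. DESeq2 called 1 of the 4, and limma on log2(TPM + 1) called none. EIF2AK3 (PERK), the kinase of the endoplasmic reticulum, had 38.4, 35.8 and 34.4 CPM in sµg and 29.6, 30.1 and 31.0 CPM in 1g, a rise of 19.9% (log2 fold change 0.26 ± 0.06, edgeR adjusted p = 0.0013). Its estimated TPM were less even, 14.5 ± 3.06 in sµg and 10.8 ± 0.765 in 1g (SD, n = 3 each). The EIF2AK3 call was lost in the 3 analyses that use effective length (adjusted p = 0.054 with the offset, 0.0804 and 0.0776 with limma). Its most abundant transcript, EIF2AK3-208, has no defined coding sequence (8.07 TPM in sµg and 5.66 TPM in 1g). The canonical coding transcript EIF2AK3-201 had 2.50 TPM in sµg and 3.33 TPM in 1g. Neither transcript was called (edgeR adjusted p = 0.381 and 0.452), so the rise was not shown for coding mRNA. EIF2AK4 (GCN2), which senses uncharged tRNA, had 148, 145 and 135 CPM in sµg and 128, 131 and 136 CPM in 1g, which overlap. Its call (edgeR adjusted p = 0.0369) was lost with DESeq2 (adjusted p = 0.0707) and without sµg replicate 1 or 2 or 1g replicate 1 or 2 (adjusted p = 0.162, 0.124, 0.172 and 0.111). EIF2AK1 (HRI), the kinase activated by heme shortage, and EIF2AK2 (PKR), the kinase activated by double-stranded RNA, were not called (log2 fold change -0.09 and 0.04).

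Of the 14 eIF3 genes, 1 was higher, beside 15.5% of all genes tested, 3 were lower, beside 18.2%, and 10 were not called. Their summed level was 4697 ± 159 TPM in sµg and 4691 ± 37.4 TPM in 1g (SD, n = 3 each). EIF3L had 532, 535 and 517 CPM in sµg and 600.5, 611 and 606 CPM in 1g. This fall of 12.8% was many times the spread within 1g (edgeR adjusted p = 2.18e-04). EIF3F had 212, 212 and 189.6 CPM in sµg and 247, 233 and 232 CPM in 1g (log2 fold change -0.22 ± 0.04, edgeR adjusted p = 0.00102), and lost its call in limma on log2(TPM + 1) (adjusted p = 0.0977). EIF3H fell by 0.10 on the log2 scale (edgeR adjusted p = 0.0265) and EIF3C rose by 0.12 (edgeR adjusted p = 0.0219). Both of these calls were lost without any 1 of sµg replicate 1, sµg replicate 2 and the 3 1g replicates, where the adjusted p lay between 0.0554 and 0.115. An offset for effective length lost both as well (adjusted p = 0.0504 for EIF3H and 0.294 for EIF3C). So did limma on log2(TPM + 1) (adjusted p = 0.192 for EIF3H and 0.243 for EIF3C). EIF3C shares reads with its copy EIF3CL, whose libraries varied from 4.76 to 20.3 CPM in sµg and from 6.21 to 14.9 CPM in 1g. The subunits F and H form a dimer in the eIF3 octamer, and L and K form another pair. EIF3E, EIF3K, EIF3M and the scaffold subunits EIF3A and EIF3B were not called, with log2 fold changes from -0.05 to 0.07.

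The cap-binding complex eIF4F and its helpers gave 1 higher and 2 lower genes of 12, beside 15.5% higher and 18.2% lower of all genes tested. EIF4E, the cap-binding subunit, had 161, 159 and 164 CPM in sµg and 149, 144 and 149.7 CPM in 1g (log2 fold change 0.13 ± 0.04, edgeR adjusted p = 0.01), and lost the call without 1g replicate 2 (adjusted p = 0.0644). EIF4B, which stimulates the helicase eIF4A, had 780.04, 787 and 785 CPM in sµg and 854, 870.5 and 863 CPM in 1g (log2 fold change -0.14 ± 0.03, edgeR adjusted p = 0.00437). Both groups were narrow and well apart. The helicase paralogues differed: EIF4A2 had 448, 452 and 499 CPM in sµg and 514, 521 and 517 CPM in 1g (edgeR adjusted p = 0.00829), while EIF4A1 was not called, with 1541 CPM in sµg and 1487 CPM in 1g on average. The EIF4A2 call was lost without sµg replicate 1 or 2 (adjusted p = 0.054 and 0.0573), the libraries that lay lower than sµg replicate 3. The ratio of EIF4A1 to EIF4A2 in TPM was 4.10 ± 0.118 in sµg and 3.54 ± 0.0883 in 1g (SD, n = 3 each). EIF4G1, the scaffold, and EIF4G2 (DAP5), a scaffold that does not bind eIF4E, were not called (log2 fold change 0.10 and 0.09, edgeR adjusted p = 0.0717 and 0.0758), although EIF4G1 was called higher with no filter on low counts (adjusted p = 0.0492). Without sµg replicate 3 both were called higher (log2 fold change 0.16 and 0.14).

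Of the 4 inhibitors and carriers of eIF4E, 1 was lower in sµg, beside 18.2% of all genes tested. EIF4EBP1, the most abundant of them in TPM, had 131, 131 and 145 CPM in sµg and 135, 128 and 131 CPM in 1g, and EIF4EBP2 had 294 CPM in sµg and 304 CPM in 1g on average; neither was called (edgeR adjusted p = 0.404 and 0.506). EIF4EBP3 was called lower with 3.60, 2.93 and 3.89 CPM in sµg and 4.75, 4.46 and 4.41 CPM in 1g (log2 fold change -0.39 ± 0.14, edgeR adjusted p = 0.0429). This low-count gene shares exons with the readthrough gene ANKHD1-EIF4EBP3, and its call was lost with DESeq2 (adjusted p = 0.148) and without any library other than sµg replicate 3 (adjusted p = 0.0673 to 0.189). In TPM, the ratio of EIF4E to EIF4EBP1 was 0.660 ± 0.0185 in sµg and 0.586 ± 0.0297 in 1g (SD, n = 3 each).

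**Figure D4:**
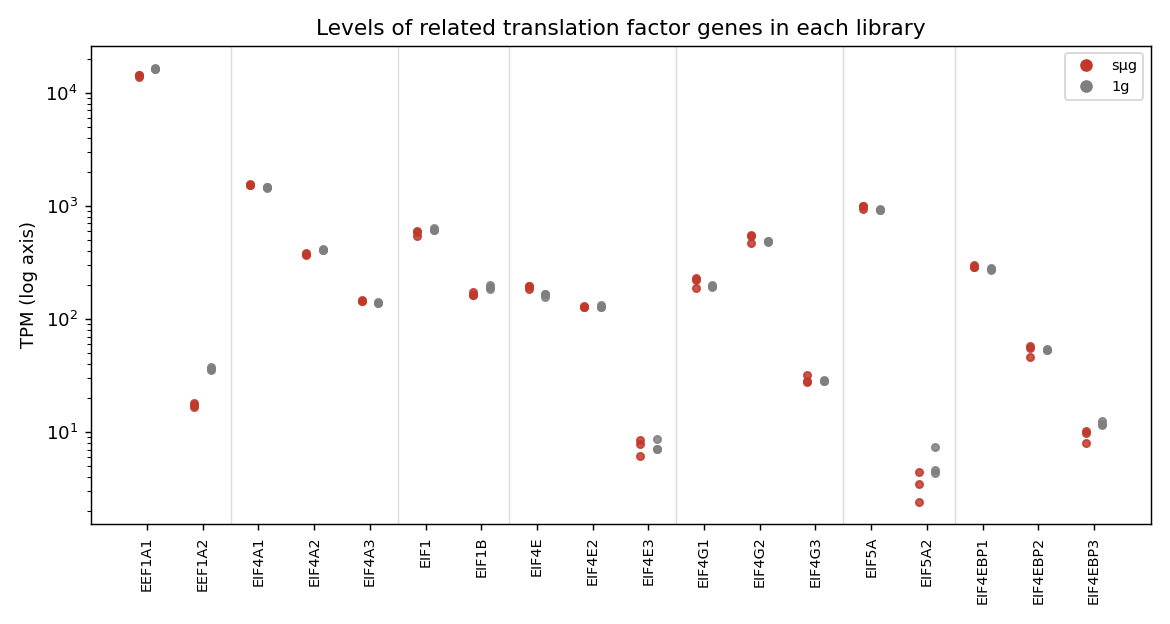
TPM in each library (y axis, log scale) of 18 translation factor genes set beside their relatives, with sµg in red left of 1g in grey. EEF1A2 is the gene whose conditions are farthest apart, near 17.5 TPM in sµg and 36.2 TPM in 1g, and EEF1A1 lies 811 times above it in sµg and 453 times in 1g.

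EIF5B, the GTPase that joins the 60S subunit, had the largest rise among the called factors. It had 153, 139.5 and 158 CPM in sµg and 123, 126 and 124 CPM in 1g, a rise of 20.9% (log2 fold change 0.27 ± 0.04, edgeR adjusted p = 9.41e-05). EIF5B overlaps the opposite-strand genes TXNDC9 (mean 52.4 TPM) and REV1 (18.8 TPM). Both averaged more in sµg, TXNDC9 with 49.9 CPM against 43.9 CPM in 1g and REV1 with 40.6 CPM against 35.9 CPM in 1g. Since counting with RSEM's default settings does not use strand, reads in the overlap cannot be told apart. The same limit holds for other called factors with opposite-strand neighbours. Among them are EIF2S2 with RALY (mean 193 TPM), EIF4A2 with RFC4 (107 TPM), EIF2A with SERP1 (64.5 TPM) and EEF2KMT with ALG1 (41.8 TPM). EIF6, which keeps the subunits apart, was not called (log2 fold change 0.09, edgeR adjusted p = 0.117). Of the 5 tested genes of methyltransferases that modify eEF1A and eEF2, EEF1AKMT2 was called lower and EEF2KMT higher (edgeR adjusted p = 0.0295 and 0.0332), and DESeq2 and limma called neither. The EEF1AKMT2 call was lost without sµg replicate 2 or 1g replicate 1 or 2 (adjusted p = 0.178, 0.12 and 0.0881), and the EEF2KMT call without sµg replicate 1 or 1g replicate 2 or 3 (adjusted p = 0.1, 0.103 and 0.12).

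A transcript's estimated count varied far more between replicates than a gene's (biological coefficient of variation 48.4% against 3.96%). Of 847 annotated transcripts, 478 were tested. By edgeR, sµg was higher for 2 and lower for 6 of them, beside 0.476% and 1.29% of all 53807 transcripts tested, and 49 had an unadjusted p under 0.05. DESeq2 called 11 of the 478 higher and 22 lower. The falls included EEF1A1-219, which held about 53.4% of EEF1A1 in sµg and 52.6% in 1g and had 7488, 7715 and 7516 TPM in sµg and 8888, 8511 and 8501 TPM in 1g (adjusted p = 0.0215). The retained-intron transcript EEF1A1-207 fell with it (adjusted p = 0.0181) at a share of 21.6% in sµg and 22.2% in 1g, so the transcript shares of EEF1A1 differed little. In EEF1A2, the canonical protein-coding transcript EEF1A2-201 had 2.09, 3.03 and 2.91 TPM in sµg and 11.7, 7.38 and 10.7 TPM in 1g (adjusted p = 0.025). Its share of the gene was 11.5 to 17.3% in sµg and 20.5 to 31.1% in 1g, and EEF1A2-202, annotated as non-stop decay, took most of the rest (68.2% in sµg and 53.6% in 1g on average, adjusted p = 0.0537 for its level). EIF4A2-201 was lower, with 47.4 TPM in sµg and 74.7 TPM in 1g (adjusted p = 0.0408), and its share of the gene, which was not tested, was 12.6% in sµg and 18.1% in 1g. EIF5-202 rose (36.5 TPM in sµg and 25.5 TPM in 1g, adjusted p = 0.0222). EIF5-218 had 12.5, 5.74 and 11.7 TPM in sµg and was listed at 0 in every 1g library. EEF1G-201, which is 99.5% of EEF1G in sµg and 99.6% in 1g, and EEF1A1-201, a minor transcript with 30.3 TPM in sµg and 48.1 TPM in 1g, were the other 2 lower ones. All 8 calls were lost when sµg replicate 1, sµg replicate 2 or any 1g replicate was left out, and 3 of the 6 lower ones were kept without sµg replicate 3.

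Partners of the factors were read from 6 lists, 66 genes in all, of which 6 were higher, beside 15.5% of all genes tested, 7 were lower, beside 18.2%, and 53 were not called. Without sµg replicate 3, 16 were higher, and all genes called higher numbered 2967, against 2591 with every library. Among 18 partners of initiation, 5 were higher and 3 lower. DHX29, a helicase that helps the 43S complex through structured leaders, had 80.9, 83.2 and 79.2 CPM in sµg and 60.3, 60.7 and 59.7 CPM in 1g (log2 fold change 0.43 ± 0.04, edgeR adjusted p = 2.36e-07), a larger rise than that of any called factor. BZW1, which mimics eIF5 and competes with it, had 564, 556 and 544 CPM in sµg and 452, 455 and 450.01 CPM in 1g (edgeR adjusted p = 2.66e-06). ABCE1, which recycles ribosomes and is the 1 of 6 termination and recycling genes called, rose as well (245 CPM in sµg and 214 CPM in 1g, edgeR adjusted p = 2.48e-04), but not in limma on log2(TPM + 1) (adjusted p = 0.0537). DNAJC24, needed for the diphthamide modification of eEF2, was the 1 gene called on a list of 12 around the modification of eIF5A, eEF1A and eEF2 (20.1 CPM in sµg and 16.4 CPM in 1g, edgeR adjusted p = 0.00222).

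Of 10 genes that sense, reverse or follow eIF2 phosphorylation, 2 were lower in sµg, beside 18.2% of all genes tested. DDIT3 (CHOP), a transcription factor induced downstream of PERK and ATF4, had 9.42, 10.04 and 12.4 CPM in sµg and 14.3, 17.1 and 15.1 CPM in 1g (log2 fold change -0.54 ± 0.10, edgeR adjusted p = 4.66e-04). PPP1R15A (GADD34), the inducible subunit of the eIF2 alpha phosphatase, fell by 0.34 on the log2 scale (edgeR adjusted p = 0.00216), a call that limma on log2(TPM + 1) did not make (adjusted p = 0.053), while ATF4 itself was not called (578 CPM in sµg and 565 CPM in 1g). Of 12 genes of mTORC1 and the MNK kinases, DEPTOR, an inhibitor of mTOR, had 2.93, 2.78 and 2.43 CPM in sµg and 4.503, 5.24 and 5.29 CPM in 1g (log2 fold change -0.88 ± 0.15, edgeR adjusted p = 1.28e-04). MLST8, a subunit of mTORC1, fell by 0.20 on the log2 scale (edgeR adjusted p = 0.00157), and was not called by limma on log2(TPM + 1) (adjusted p = 0.0546). The other 10 were not called. Of 9 mitochondrial translation factors, edgeR called none, 2 had an unadjusted p under 0.05, and DESeq2 and limma called none. The lists were drawn up with results of these data known, so their counts describe these genes and are not independent evidence.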

How the data were processed

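Poly(A) RNA of 3 sµg and 3 1g libraries was sequenced in read pairs. The authors aligned reads with STAR 2.7.7a to GRCh38.p13 (GENCODE 36) and quantified them with RSEM 1.3.3. The sources used here do not say which of the study's alignment settings gave the deposited tables. The deposited expected counts are RSEM's estimates per gene or transcript, with shared reads divided by probability, and are not normalized between libraries. The deposited TPM are those estimates per effective length, scaled to a constant sum, the deposited percent (IsoPct) is a transcript's share of its gene, and the deposited effective length is in bases. Depth was 19971097 to 28506848 expected counts per library.

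Symbols and positions came from GENCODE 44, which holds 60419 of the 60719 genes, and promoters from RefSeq. Expected counts were rounded and tested in R 4.3.3 with edgeR 4.0.16 (robust quasi-likelihood test, filterByExpr at minimum count 10 and minimum total 15, TMM factors 0.988 to 1.01, condition as the only term, Benjamini-Hochberg adjusted p under 0.05). Transcripts were tested in the same way. CPM are expected counts divided by the TMM-scaled library size, times a constant. Levels and ratios between genes use TPM and have no test, as an exact permutation test of 3 against 3 libraries cannot go below p = 0.1. The tests were also run on simulated counts. Alternatives were DESeq2 1.42.0, RLE scaling, no count filter, at least 10 counts in every library, an effective length offset, limma 3.58.1 on log2(TPM) after adding 1 or 0.1, a block for the replicate number, leaving out each library, and an adjusted p under 0.01.

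The genes, the complexes, the partner and marker lists and the tests were chosen with earlier results of these data known. Named in each complex were up to 3 genes with the smallest adjusted p under 0.05, the most abundant gene, any called gene whose log2 fold change is 0.5 or more in size, and a set of regulators and paralogues; in each partner list up to 2 genes, and up to 10 transcripts. Added after their values were seen were the called genes EEF1B2, EIF1AX, EIF1AD and EIF3H, ATF4, the EIF2AK3 transcripts and the example marker genes. Other genes that were not called and are named to complete a complex were added in the same way.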

Additional observations from a re-analysis of the deposited data

How the results depend on the processing

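No called factor changed sign in any alternative. All genes called higher numbered 1242 with the effective length offset, 1495 and 1480 with limma on log2(TPM + 1) and log2(TPM + 0.1) and 1587 at an adjusted p under 0.01, against 2591, and all genes called lower 1864, 1459 and 1444 under the first 3, against 3057. Factors called higher numbered 5 with the offset and 5 at 0.01, and 5 to 18 with 1 library left out, against 12. With 1 library left out, all genes called higher numbered 1879 to 2967. Partners called higher were 3 in both limma analyses and 5 to 16 with 1 library left out, against 6, and partners called lower 2 in both limma analyses, against 7. Transcripts of factors called higher were 11 with DESeq2 and 0 at 0.01 or with 1 library left out (0 to 0), against 2. Those called lower were 22 with DESeq2, 12 with at least 10 counts in every library, 0 at 0.01 and 0 to 3 with 1 library left out, against 6. The cause was not tested. Deviations from the condition means hardly correlated between same-numbered samples (0.00406, 0.0414 and 0.0126). Between samples of different number the correlations ran from -0.0286 to 0.0172. Such small values over 3 libraries a condition cannot decide whether the controls were matched by number. With the replicate block, 12 factors were higher and 12 lower (EIF4EBP3 was lost, adjusted p = 0.0518), 7 partners were higher and 8 lower, and 0 transcripts of factors were called in either direction. DESeq2 lost 5 of the 25 factor calls, and the offset lost 10. With 3 libraries a condition, depth and replicate spread limit what can be said of genes under about 10 TPM and of most transcripts.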

Other observations

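Among the factor genes, 9 overlap annotated snoRNA genes on the same strand, with introns and exons not told apart. Of these 9, EEF1B2, EIF1AX and EIF5 were higher in sµg, EEF2 and EIF4A2 were lower and 4 were not called. Overlap with a snoRNA gene thus did not go with 1 direction. Of the 18 initiation partners, PDCD4, an inhibitor of the helicase eIF4A, fell by 0.28 on the log2 scale (edgeR adjusted p = 0.00497). The nuclear cap-binding subunits moved apart, NCBP1 with 102 CPM in sµg and 92.8 CPM in 1g (edgeR adjusted p = 0.0266) and NCBP2 with 95.8 CPM in sµg and 108 CPM in 1g (edgeR adjusted p = 0.00201). GIGYF2, a partner of the cap-binding protein EIF4E2, had 75.4 CPM in sµg and 66.5 CPM in 1g (edgeR adjusted p = 0.0021). These 4 genes were chosen after their values were seen.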
